A study of Sus scrofa with 8 samples.

Results

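The 87 long noncoding RNAs (lncRNAs) described here are the abundant ones of a pig differentiation series that leads from pluripotent stem cells to lung progenitor organoids. They are every gene entry of the deposited table whose transcript type is lncRNA and whose mean level reached 10 FPKM (fragments scaled to transcript length and library size, a level per length) in at least 1 stage, 87 of 6521 lncRNA entries and of 25578 genes in all. The stages were porcine pluripotent stem cells (PSC), definitive endoderm (DE, the layer of the embryo that forms the gut lining), anterior foregut endoderm (AFE, from which the lung buds) and lung progenitor organoids (LPO), with 2 libraries of messenger RNA each. The labels give no cell line, culture day, inducing factor or animal, and leave unsaid whether both libraries of a stage are from different cultures. A p-value here therefore measures only how far these samples spread, which may be technical. Messenger RNA was captured with oligo(dT) beads, so lncRNAs without a poly(A) tail were not targeted, and their levels may be missed or understated.

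A lncRNA is transcribed and mostly spliced like a messenger RNA but codes for no known protein. Some act on chromatin or on proteins in the nucleus, and others are the leftover of a host gene whose introns hold small nucleolar RNAs (snoRNAs), the guides that direct chemical modification of ribosomal and spliceosomal RNA. Many are transcribed beside a coding gene, either divergently from the same promoter region or from the stretch just past its end, and are therefore described here with that gene. Nuclear lncRNAs are trimmed and degraded by the RNA exosome and its adaptors, whereas snoRNA host transcripts are exported and often broken down by nonsense-mediated decay in the cytoplasm.

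None of the 87 entries carries a symbol in the table, and they are named by their Ensembl identifiers. Positions are those of the deposited table, and its build is not stated in what was used here. Total counts per library were 36004372 to 67566269, and about 4 counts stood for 1 read pair. Marker genes followed the labels in part. The 6 pluripotency markers summed to 3629 FPKM in PSC and to 307, 20.6 and 41.3 in DE, AFE and LPO, 7 endoderm markers summed to 374 FPKM in DE against 21.0 to 90.2 elsewhere, and 7 lung progenitor markers to 80.7 FPKM in LPO against 1.84 to 27.4 elsewhere. Of the pluripotency markers 4 of 6 were highest in PSC, while LIN28A was highest in DE and SOX2 in LPO. Of the lung progenitor markers 4 of 7 were highest in LPO, while SFTPB and IRX1 were highest in AFE and CPM in DE. Much of their sum in LPO was SOX9, with a mean of 52.7 FPKM. The 6 anterior foregut markers did not mark AFE: they summed to 28.2 FPKM in DE, 25.1 in AFE and 32.5 in LPO, and 1 was highest in AFE and 4 in LPO. The 4 markers of mesenchyme (COL1A1, COL3A1, PDGFRA and TWIST1) summed to 0.915, 23.9, 40.1 and 1043 FPKM in PSC, DE, AFE and LPO, and all 4 were highest in LPO.

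The abundant lncRNAs were most numerous and most abundant in the organoids. Summed over the 87 entries, levels were 1381 and 1386 FPKM in PSC, 1342 and 1290 in DE, 1727 and 1726 in AFE and 2479 and 2509 in LPO. They made up 0.294% to 0.370% of all FPKM in the PSC, DE and AFE libraries and 0.717% and 0.721% in LPO, and 62.3% to 67.1% of all lncRNA FPKM in every library. The stage of highest mean FPKM was LPO for 47 entries, PSC for 23, AFE for 13 and DE for 4. With counts scaled by TMM in place of FPKM it was LPO for 41, PSC for 24, AFE for 15 and DE for 7. Since the members were chosen by these levels, the counts are a description. The rise of mesenchyme markers accompanies the levels in LPO, and its part in them was not tested. In such bulk libraries fewer cells of a type and less RNA per cell cannot be told apart.

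Levels of 10 FPKM or more were reached in a single stage by 46 entries, in 2 stages by 12, in 3 by 10 and in all 4 by 19. Of the 46, 30 reached it in LPO only, 10 in PSC only, 5 in AFE only and 1 in DE only. The median tau (an index that is 0 for equal levels in all stages and 1 for a gene confined to 1 stage) was 0.627. A tau of 0.9 or more was found for 10 entries highest in LPO, 2 in PSC and 1 in DE. The libraries of the top stage lay above all other libraries for 47 of 47 entries highest in LPO, 22 of 23 in PSC, 10 of 13 in AFE and 4 of 4 in DE, which the rule favours. Over all tested genes the same held for 86.1% of those highest in LPO, 76.9% in PSC, 63.1% in AFE and 65.2% in DE. Just inside the threshold lay ENSSSCG00000055582 (10.01 FPKM in PSC), ENSSSCG00000062147 (10.3 in LPO) and ENSSSCG00000032549 (10.5 in AFE), and just outside it ENSSSCG00000052348 (9.98 in LPO), ENSSSCG00000059203 (9.93 in LPO) and ENSSSCG00000046151 (9.92 in AFE). Libraries of a stage differed little. Of the entries at 1 FPKM or more in both, 69 of 72 agreed within 1.5-fold in PSC, 70 of 75 in DE, 74 of 76 in AFE and 81 of 84 in LPO.

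**Figure D1:**
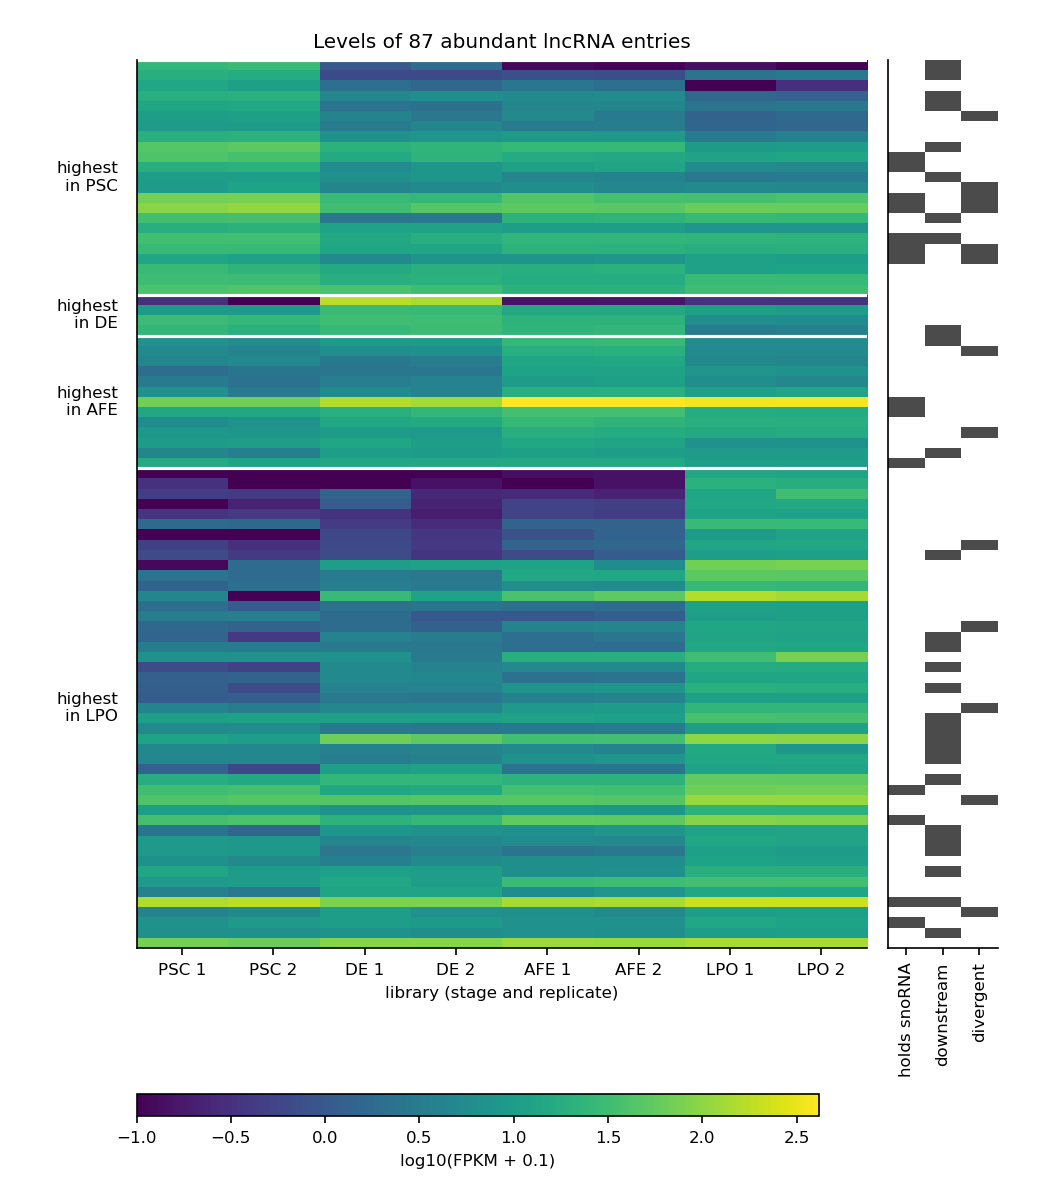
Levels of the 87 abundant lncRNA entries (rows) in the 8 libraries (columns) as log10(FPKM + 0.1), grouped by the stage of highest mean and, within it, ordered by tau, with dark marks at the right for entries that hold a snoRNA, lie downstream of a same-strand coding gene or are divergent from one. The largest block, 47 entries, is highest in LPO, and its upper rows are near 0 before that stage.

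Changes between stages were tested on the counts with edgeR over 19346 genes, and a gene was called at an adjusted p under 0.05. An entry was tested in a comparison only where it reached 10 FPKM in a stage outside that comparison, so that the libraries compared had not chosen it. All 87 entries passed the filter on low counts. Of the entries that met this condition, 52 of 76 were called in DE against PSC (29 higher and 23 lower in DE, median log2 change 0.12), beside 53.8% of all genes (30.8% higher and 23% lower). In AFE against DE 40 of 79 were called (29 higher and 11 lower, median 0.30), beside 35.3% (17.9% and 17.4%). In LPO against AFE 37 of 48 were called (11 higher and 26 lower, median −0.60), beside 59.8% (30.2% and 29.6%), and in LPO against PSC 38 of 45 (20 higher and 18 lower, median 0.28), beside 70.3% (41.5% and 28.8%). These entries had to be high in a stage outside the comparison. Over all 87 entries, with no test, the median log2 changes were 0.00, 0.30, 0.31 and 0.64, so that in LPO against AFE the sign is the opposite, with 50 of 87 above 0. As shares, the calls were 68.4%, 50.6%, 77.1% and 84.4% of the entries. Among the 2764 other lncRNAs that passed the filter the shares were 20.4%, 12.8%, 23.3% and 43.1%, and among coding genes 60.0%, 39.7%, 66.7% and 75.3%. Low-count genes are harder to call, and the part of abundance in these shares was not tested.

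The scale bears on directions into LPO. The TMM factors ran from 0.901 to 0.954 in PSC, DE and AFE but were 1.26 and 1.27 for the organoids, and the median log2 change of all genes in LPO against PSC was 0.49 with TMM, 0.37 with DESeq2 size factors and 0.65 on log2(FPKM + 0.1). In LPO against AFE it was 0.09, 0.15 and 0.43. On the log2(FPKM + 0.1) scale the split of called entries was 18 higher and 18 lower in LPO against AFE and 24 and 15 in LPO against PSC, and with DESeq2 size factors it was 22 and 25 in DE against PSC. An excess of falls into LPO, or of rises into DE, therefore depended on the scaling. In AFE against DE higher entries outnumbered lower ones under each of these (29 and 11 or 28 and 13).

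The most abundant entry was ENSSSCG00000044572 (chromosome 7, 23933386 to 23936456, plus strand), which holds SNORD48 and SNORD52. In human these snoRNAs lie in introns of the host gene SNHG32, close to the HSPA1 heat-shock genes. Its level was 69.3 and 71.5 FPKM in PSC, 157 and 129 in DE, 415 and 411 in AFE and 360 and 374 in LPO. No stage overlapped another, and AFE and LPO stood well above PSC and DE. It rose in DE against PSC (log2 change 1.06 with SE 0.093, adjusted p = 3.9e-05) and in AFE against DE (1.58 with SE 0.093, adjusted p = 1.7e-05), and stood higher in LPO than in PSC (1.97, adjusted p = 6.9e-07). The fall in LPO against AFE (−0.66, adjusted p = 3.8e-04) was −0.17 and not called on the FPKM scale (adjusted p = 0.14). The nearest coding gene, HSP70.2 (an inducible heat-shock chaperone, 5211 bp away), ran from 10.8 and 7.59 FPKM in PSC to 192 and 199 in LPO. It rose in DE against PSC (2.61, adjusted p = 5.6e-06) and again in LPO against AFE (0.95, adjusted p = 6.6e-04), where the lncRNA did not.

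The next entry in rank was ENSSSCG00000046461 (chromosome 12, 59132520 to 59134630, minus strand), with SNORD49A, SNORD49B and SNORD65 inside it. It measured 152 and 174 FPKM in PSC, 80.2 and 81.2 in DE, 136 and 145 in AFE and 223 and 219 in LPO. It was thus lowest in DE, with no overlap. It fell in DE (log2 change −0.98 with SE 0.089, adjusted p = 4.7e-05) and rose in AFE (0.85 with SE 0.089, adjusted p = 2.7e-04), both against the stage before. LRRC75A, a leucine-rich repeat gene that ends 16 bp away on the opposite strand, was at 0.630 to 2.09 FPKM before LPO and at 5.44 and 5.02 in LPO.

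ENSSSCG00000032301 (chromosome 10, 24956906 to 24973240, minus strand), 24989 bp from the cytochrome b5 reductase CYB5R1, had the lowest tau of the 10 most abundant entries, 0.336 (an index defined above). Its levels were 71.5 and 61.6 FPKM in PSC, 89.9 and 91.1 in DE, 122 and 119 in AFE and 138 and 141 in LPO. They rose from stage to stage in FPKM, each stage above the one before. The rises in DE (log2 change 0.48, adjusted p = 0.0010) and AFE (0.46, adjusted p = 0.0024) were called. In LPO against AFE the sign depended on the scale (−0.28 with TMM, 0.21 in FPKM), and without AFE replicate 1, AFE replicate 2 or LPO replicate 1 it was not called (−0.27, −0.30 and −0.28). CYB5R1 itself fell in LPO against AFE (−0.82, adjusted p = 3.0e-04).

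ENSSSCG00000062032 (chromosome 17, 39322206 to 39325146, minus strand) was flat until the organoids. It measured 41.8 and 45.4 FPKM in PSC, 44.5 and 47.4 in DE, 48.0 and 44.5 in AFE and 116 and 113 in LPO. The first 3 stages overlapped and LPO lay apart. It rose in LPO against AFE (log2 change 0.81 with SE 0.081, adjusted p = 5.8e-05). The coding gene that starts 1481 bp away on the other strand, ENSSSCG00000007314, rose in the same comparison (1.95, adjusted p = 5.6e-07) and earlier in DE against PSC (1.33, adjusted p = 4.8e-06).

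Of the 10 most abundant entries, 2 lie over each other on chromosome 2 and cannot be measured apart. ENSSSCG00000060056 (6808245 to 6811483, plus strand) and ENSSSCG00000056754 (6804687 to 6811446, minus strand) share 3202 bp. The library kit keeps the strand, per the labels, but whether the counting used it is not stated. In PSC replicate 1 the plus-strand entry held 99.1% of the pair's counts and in PSC replicate 2 it held 0%, while the pair's sum was 15.8 and 13.3 CPM (counts scaled to library size with TMM factors). Between the DE libraries its share went from 56.4% to 33.8% and between the AFE libraries from 59.0% to 81.5%. The sum was far steadier, with 180 and 135 CPM in DE, 239 and 243 in AFE and 827 and 796 in LPO. Read as a pair, then, this locus was low in PSC and highest in LPO, and the level of either entry alone is uncertain.

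A neighbouring entry on the same chromosome, ENSSSCG00000048856 (6751519 to 6757180, minus strand), was picked after its values were seen. It measured 7.19 and 6.57 FPKM in PSC, 6.65 and 2.96 in DE, 18.7 and 18.3 in AFE and 32.0 and 75.9 in LPO. The LPO libraries thus differed 2.37-fold, the widest gap in any stage among entries at 1 FPKM or more in both libraries. Its rise in AFE against DE (log2 change 1.99, adjusted p = 0.011) was not called without DE replicate 2 (1.51, adjusted p = 0.061). FRMD8, the coding gene nearest to the overlapping pair (11484 bp from its plus-strand entry) and a scaffold that stabilises the sheddase iRhom complex, rose in DE against PSC (2.27, adjusted p = 5.5e-05) and fell in LPO against AFE (−1.21, adjusted p = 0.0011).

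In all, 4 pairs of abundant entries overlap on opposite strands. The most abundant entry shares 3063 bp with ENSSSCG00000044205, and held 72.0% to 82.9% of that pair's counts in every library. ENSSSCG00000051274 and ENSSSCG00000045052 share 4242 bp, and the former held 92.8% to 100% of the counts. ENSSSCG00000044004 and ENSSSCG00000037324, beside the oxytocin gene OXT, share 3968 bp. In LPO the plus-strand entry held 24.8% of that pair's counts in replicate 1 and 61.1% in replicate 2, with sums of 132 and 125 CPM. Leaving out the 8 entries of these pairs, the entries called were 47 of 68 in DE against PSC, 37 of 71 in AFE against DE, 35 of 44 from AFE to LPO and 34 of 41 from PSC to LPO.

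**Figure D2:**
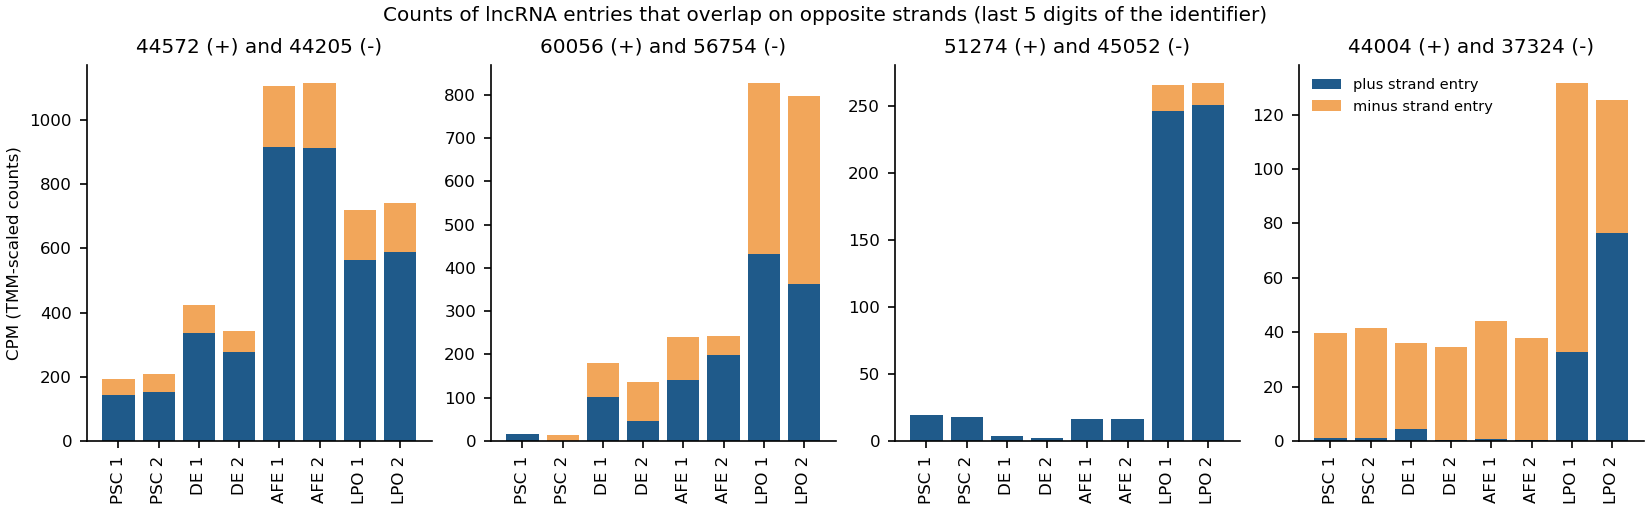
TMM-scaled CPM of the 4 pairs of abundant lncRNA entries that overlap on opposite strands, stacked by strand, in each of the 8 libraries. For the second pair in PSC the bars are of similar height in both libraries while the plus-strand share is 99.1% and 0%. The same holds for the fourth pair in LPO (24.8% and 61.1%). In other stages of these pairs the split is closer, as for the second in LPO (52.2% and 45.4%) and the fourth in PSC (2.93% and 2.44%).

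A snoRNA or the related small Cajal body RNA (scaRNA) lies on the same strand inside 14 of the 87 entries (16.1%), against 4 of the 6434 other lncRNAs (0.0622%). This grouping was made after the values were seen. The snoRNA symbols come from the table, and the human host genes named beside them are background. The group held most of the evenly abundant entries: 11 of the 14 reached 10 FPKM in all 4 stages, as did 19 of all 87. Of the 14, 7 were highest in PSC, 4 in LPO, 3 in AFE and none in DE.

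The common pattern among these host-type entries was a low level in DE. In DE against PSC 12 of 14 were called (85.7%, beside 53.8% of all genes), 10 lower and 2 higher (23% and 30.8% of all genes). The median log2 change was −0.98, against 0.08 over all genes. In AFE against DE 9 of 14 were called (64.3%, beside 35.3% of all genes), all higher (17.9% of all genes). The median there was 0.68, against 0 over all genes. The comparisons share the DE libraries, so that the fall and the rise are not independent. Both counts were the same with DESeq2 size factors, and on the log2(FPKM + 0.1) scale 10 were lower and 2 higher in DE and 9 higher and 1 lower in AFE. In LPO against AFE 9 of 13 were called (69.2%, beside 59.8% of all genes), 1 higher and 8 lower. On the log2(FPKM + 0.1) scale 4 were higher and 3 lower, so that no direction into LPO held under both.

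ENSSSCG00000043175 (chromosome 2, 8919294 to 8922572, plus strand) holds SNORD22 and SNORD26 to SNORD31, which in human lie in SNHG1. It measured 95.7 and 108 FPKM in PSC, 32.5 and 45.8 in DE, 50.2 and 49.8 in AFE and 60.8 and 59.5 in LPO. PSC was highest by a wide margin and DE lowest, with no overlap. It fell in DE against PSC (log2 change −1.34 with SE 0.16, adjusted p = 2.4e-04) and stood lower in LPO than in PSC (−1.17, adjusted p = 3.1e-04).

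ENSSSCG00000059522 (chromosome 9, 116145162 to 116147549, minus strand) holds SNORD79 and SNORD81, which in human lie in GAS5, a transcript that accumulates when growth stops. Its levels were 73.2 and 73.9 FPKM in PSC, 27.0 and 25.6 in DE, 45.1 and 36.6 in AFE and 34.9 and 39.0 in LPO. AFE and LPO overlapped, and PSC stood above both. It fell in DE against PSC (−1.45 with SE 0.15, adjusted p = 8.4e-05) and was lower in LPO than in PSC (−1.40, adjusted p = 5.5e-05). The rise in AFE against DE (0.68, adjusted p = 0.0080) was not called without AFE replicate 1 (0.53, adjusted p = 0.066).

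ENSSSCG00000044841 (chromosome 1, 54629462 to 54633653, minus strand) holds SNORD50B, which in human lies in SNHG5. It measured 36.0 and 38.6 FPKM in PSC, 22.1 and 25.5 in DE, 53.4 and 52.1 in AFE and 89.8 and 84.0 in LPO. It fell in DE (−0.61, adjusted p = 7.1e-04) and rose in AFE (1.2, adjusted p = 5.5e-05). The nearest coding gene, SYNCRIP (an RNA-binding protein, 31055 bp away), fell in both comparisons (−0.72, adjusted p = 9.4e-05, and −0.69, adjusted p = 3.1e-04).

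ENSSSCG00000057006 (chromosome 2, 117504129 to 117505628, minus strand) holds SNORA13, which in human lies in EPB41L4A-AS1. The gene EPB41L4A, a membrane-skeleton adaptor, ends 2457 bp away on the other strand. It measured 32.5 and 36.0 FPKM in PSC, 14.1 and 16.4 in DE, 34.8 and 32.9 in AFE and 68.8 and 72.8 in LPO. It fell in DE (−1.13, adjusted p = 1.2e-04) and rose in AFE (1.2, adjusted p = 2.3e-04). EPB41L4A also rose in AFE (2.48, adjusted p = 8.1e-06) and fell in LPO against AFE (−1.16, adjusted p = 5.6e-05).

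The exceptions to the low level in DE were the most abundant entry and ENSSSCG00000045735 (chromosome 18, 50458411 to 50463097, plus strand), which holds SNORA9. The latter measured 14.3 and 14.1 FPKM in PSC, 19.6 and 25.1 in DE, 34.4 and 34.4 in AFE and 17.1 and 16.5 in LPO. It rose in DE (0.69, adjusted p = 0.0059) and fell in LPO against AFE (−1.53, adjusted p = 5.6e-05). ENSSSCG00000045200 and ENSSSCG00000061321, with SNORD88B and SNORD88C and with SNORD87, were not called in DE against PSC or AFE against DE. The remaining 6 hosts, with SNORD1B, SNORA73, SNORD60, SCARNA13, an unnamed snoRNA and those of the entry second in rank, fell in DE.

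**Figure D3:**
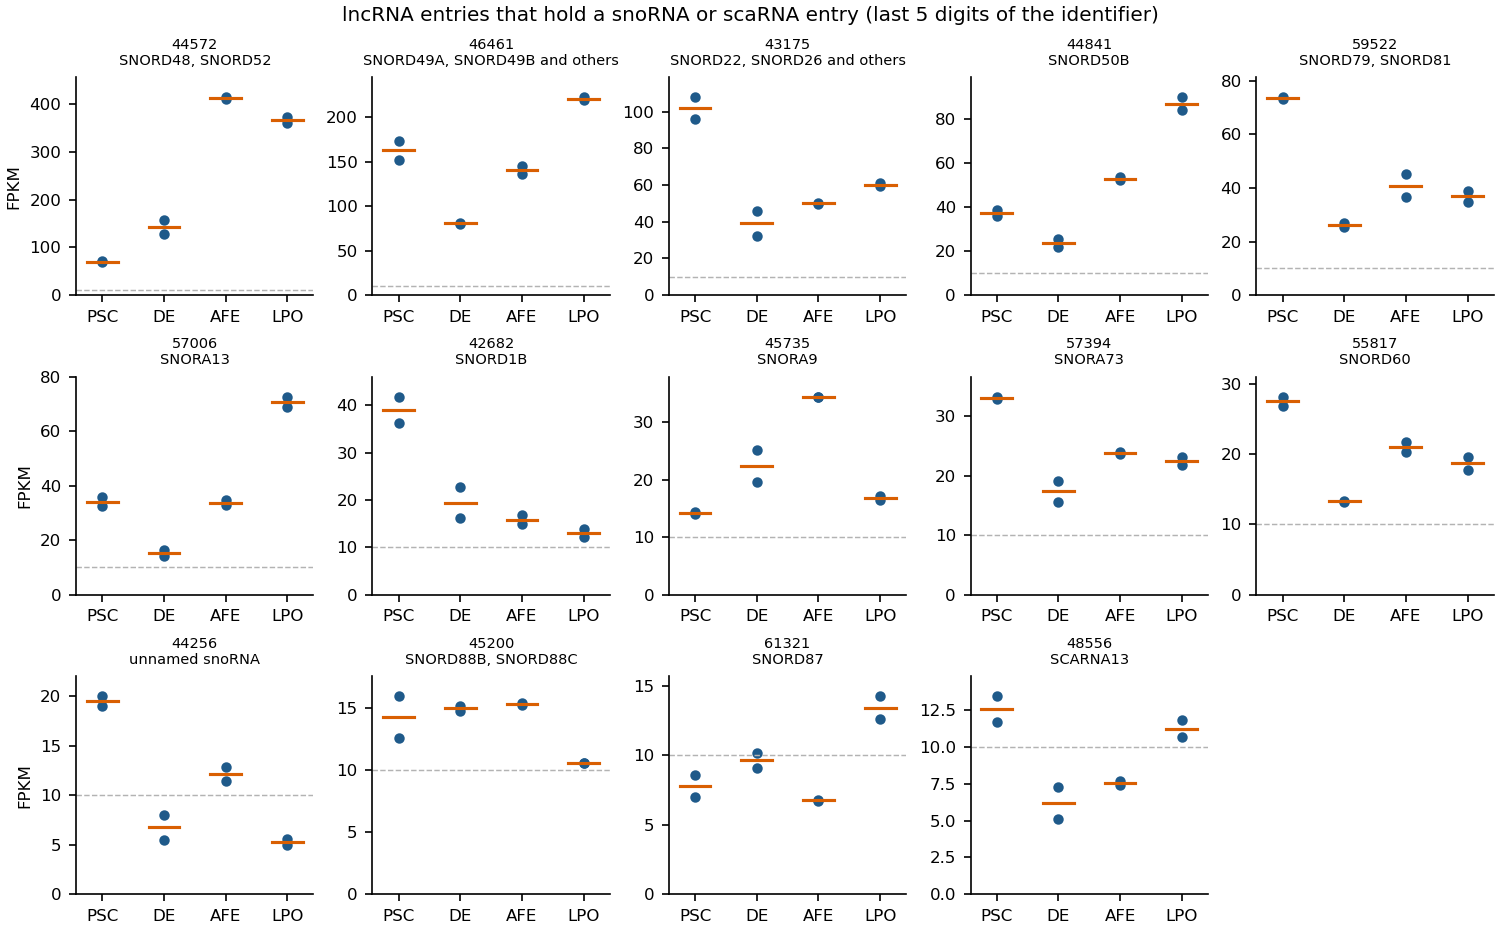
FPKM in each library (points) and stage mean (bars) of the 14 abundant lncRNA entries that hold a snoRNA or scaRNA entry, with the dashed line at 10 FPKM. In 10 panels DE lies below PSC, and the panel of SNORD48 and SNORD52 climbs from 69.3 and 71.5 FPKM in PSC to 415 and 411 in AFE.

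The entries nearest to stage-restricted are described next, first those of the stem cells. ENSSSCG00000047132 (chromosome 5, 62939184 to 62942439, plus strand) begins 102 bp past the end of NANOG, a core pluripotency factor, on the same strand. It measured 24.9 and 28.8 FPKM in PSC, 0.92 and 1.86 in DE, 0.02 and 0.01 in AFE and 0.04 and 0 in LPO. NANOG measured 36.6 and 34.1, 1.97 and 3.91, 0.04 and 0, and 0.05 and 0.21 FPKM. Both were thus high in PSC and nearly absent from AFE on. The entry fell in AFE against DE (133 read pairs in DE and 2 in AFE, 95% counting interval of the ratio 19.1 to 586, adjusted p = 2.9e-04), and NANOG fell in DE against PSC (log2 change −3.55 with SE 0.45, adjusted p = 2.9e-04) and in AFE against DE (ratio 116, interval 20.4 to 4629, adjusted p = 3.9e-04). The intervals are exact binomial ones and cover counting error only.

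ENSSSCG00000055468 (chromosome 3, 72051140 to 72054250, plus strand) lies 666 bp past the end of TGFA, a ligand of the epidermal growth factor receptor. It measured 19.3 and 17.4 FPKM in PSC, 0.54 and 0.52 in DE, 0.67 and 0.65 in AFE and 2.37 and 2.82 in LPO. TGFA was at 5.03 and 8.53, 0.2 and 0.21, 0.23 and 0.16, and 1.63 and 0.74 FPKM. Both were highest in PSC and next highest in LPO. In LPO against AFE the entry rose (1.48 with SE 0.14, adjusted p = 4.3e-05), and so did TGFA (2.09 with SE 0.48, adjusted p = 0.0062), which had fallen in DE against PSC (−5.01, adjusted p = 9.9e-05).

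The pair at FEM1A (a substrate receptor of a ubiquitin ligase) went the other way. ENSSSCG00000061331, 633 bp past its end, measured 18.5 and 19.7 FPKM in PSC, 4.70 and 6.16 in DE, 5.20 and 5.54 in AFE and 1.51 and 1.26 in LPO, and it fell in LPO against AFE (−2.44 with SE 0.16, adjusted p = 5.0e-06). FEM1A measured 1.32 and 0.67 FPKM in PSC and 9.18 and 8.76 in LPO, and rose in DE against PSC (2.56 with SE 0.28, adjusted p = 1.3e-04).

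ENSSSCG00000059729 measured 13.8 and 14.2 FPKM in PSC and 2.11 to 4.40 elsewhere. It rose in AFE against DE (1.06, adjusted p = 0.0047) and fell in LPO against AFE (−1.29, adjusted p = 6.9e-04). TTC23, the same-strand gene 2509 bp before it, had no counts in PSC and reached 3.32 and 4.16 FPKM in LPO. The last of the 5, ENSSSCG00000048761, was at 14.2 and 11.1 FPKM in PSC, 1.56 to 2.57 in DE and AFE and 0 and 0.21 in LPO.

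A single entry was confined to definitive endoderm. ENSSSCG00000059004 (chromosome 12, 50707661 to 50710825, minus strand) measured 174 and 145 FPKM in DE, and 0.22 and 0, 0.05 and 0.06, and 0.23 and 0.24 in PSC, AFE and LPO. Only the SNORD48 and SNORD49A hosts reached a higher stage mean, yet it was at or near 0 in the other 6 libraries. The citrate transporter SLC13A5 ends 2400 bp away on the other strand, and measured 16.6 and 12 FPKM in DE against 0 to 0.18 elsewhere. SLC13A5 was higher in DE than in PSC (ratio 150, 95% counting interval 58.4 to 552, adjusted p = 2.2e-04) and than in AFE (ratio 492, interval 136 to 4069, adjusted p = 3.1e-04). The other entries highest in DE were far less restricted. ENSSSCG00000050380 measured 29.5 and 28.6 FPKM in DE against 8.90 to 15.3 elsewhere, and rose in DE against PSC (1.72, adjusted p = 7.7e-06). ENSSSCG00000053570 and ENSSSCG00000055092 were broad over PSC, DE and AFE (21.4 to 32.5 and 19.6 to 30.2 FPKM) and dropped in LPO, to 5.85 and 5.61 and to 3.20 and 3.64. In LPO against AFE the first fell by 2.41 and the second by 3.30 on the log2 scale (adjusted p = 1.2e-06 and 7.5e-07). STX10, a syntaxin of Golgi transport that ends 1282 bp before ENSSSCG00000055092, fell too (−1.24, adjusted p = 5.8e-05).

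None of the entries highest in AFE reached a tau of 0.9. ENSSSCG00000042233, which lies 2767 bp past the Rab11 effector gene RAB11FIP4, measured 25.3 and 28.4 FPKM in AFE and 5.43 to 9.93 elsewhere. It was higher in DE than in PSC (0.72, adjusted p = 6.5e-04), as was RAB11FIP4 (2.09, adjusted p = 0.0013), which stayed at 0.28 to 1.94 FPKM in all 8 libraries. ENSSSCG00000053885, between the axon-guidance gene NAV1 and the importin IPO9, was at 18.3 and 19.4 FPKM in AFE and 4.01 to 6.52 elsewhere. NAV1, the nearer gene, was also highest in AFE (10.9 and 11.3 FPKM, against 3.98 to 10.1 elsewhere). IPO9 ranged over 42.4 to 73.8 FPKM with overlap among PSC, DE and AFE. ENSSSCG00000041434 measured 13.7 and 14.3 FPKM in AFE and 2.83 to 5.21 elsewhere. ENSSSCG00000059573, 898 bp from the WNT inhibitor CXXC4, was at 12.4 and 12.2 FPKM in AFE and next highest in LPO (7.52 and 7.12), where it was above PSC (1.36, adjusted p = 7.3e-05). ENSSSCG00000049100 measured 9.82 and 11.4 FPKM in AFE and 5.93 and 4.56 in LPO.

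In the organoids, 10 entries had a tau of 0.9 or more. ENSSSCG00000059352 (chromosome 13, 87387115 to 87391874, minus strand) measured 13.3 and 12.7 FPKM in LPO, 0.04 and 0.05 in AFE and 0 in PSC and DE. No coding gene lies within 50 kb of it, which is so for 2 of the 87 entries. ENSSSCG00000053833 measured 12.4 and 11.5 FPKM in LPO and 0.09 to 0.45 elsewhere, while its neighbour SEC61G (a subunit of the protein translocon, 6198 bp away) fell in LPO against AFE (−1.60, adjusted p = 3.2e-06). ENSSSCG00000052374 on chromosome X measured 14.9 and 15.4 FPKM in LPO and 0 to 1.00 elsewhere, and its neighbour ARMCX3 (a mitochondrial trafficking protein, 2470 bp away on the other strand) rose in LPO against AFE (1.87, adjusted p = 4.1e-06).

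RefSeq places MEG3, the maternally expressed RNA of an imprinted cluster, over the overlapping entries ENSSSCG00000051274 and ENSSSCG00000045052 (chromosome 7, 121656237 to 121677286 and 121656238 to 121660479). The plus-strand entry, which was picked after its values were seen, measured 1.66 and 1.52 FPKM in PSC, 0.32 and 0.19 in DE, 1.34 and 1.34 in AFE and 28.3 and 28.6 in LPO. The minus-strand entry measured 20.4 and 17.6 FPKM in LPO and 0 to 0.23 elsewhere. Both were highest in LPO, and the plus-strand entry dipped in DE, falling against PSC (−2.59 with SE 0.20, adjusted p = 1.8e-05) and rising in AFE (2.43 with SE 0.19, adjusted p = 6.8e-05). The coding neighbour RTL1, an imprinted gene of retrotransposon origin, stayed at 0 to 0.07 FPKM. ENSSSCG00000044004, next to OXT, was at 13.7 and 32.1 FPKM in LPO and 0.13 to 1.31 elsewhere, and its LPO libraries differ with the strand split of the overlapping ENSSSCG00000037324 given above.

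ENSSSCG00000047270 (chromosome 6, 30516948 to 30572591, plus strand), also picked after its values were seen, starts 2140 bp from IRX5, an Iroquois factor, on the other strand. It measured 0.22 to 0.53 FPKM in PSC and DE, 1.40 and 1.51 in AFE and 13.9 and 14.0 in LPO. IRX5 measured 0 to 0.15, 1.96 and 1.42, and 5.51 and 4.33 FPKM. Both were low in PSC and DE and highest in LPO, and both rose in AFE against DE (1.84 with SE 0.28, adjusted p = 0.0019, and 4.16 with SE 0.85, adjusted p = 0.0071).

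The abundant entries lay closer to coding genes than other lncRNAs did. No lncRNA entry of the table overlaps a coding entry. Of the 87, 28 (32.2%) begin within 5 kb past the end of a coding gene on the same strand, against 9.23% of the 6434 others. A further 13 (14.9%, against 9.61%) start within 5 kb of a coding gene's start on the other strand, 44 (50.6%, against 43.8%) have a coding gene within 50 kb in another arrangement, and 2 (2.30%, against 37.3%) have none. In RefSeq's gene table for Sscrofa11.1, whose shared symbols overlap the deposited positions in 99.9% of 13854 cases, 50 of the 87 entries (57.5%, against 26.3%) overlap the interval of a coding gene. For 18 of the 28 entries past a gene's end that interval belongs to the very gene upstream. There the deposited table ends the gene before the entry and RefSeq does not, so that entry and gene may be parts of 1 transcript, which was not tested. The table gives no strand for these intervals.

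The entries were chosen for a high level in their own top stage, so that the following levels are a description the rule favours. In these 18 the mean FPKM of the entry was above that of the coding entry in its own top stage in 16 of 18, and in all 8 libraries in 11. The ratio of entry to gene in that stage ran from 0.381 (CHRAC1) to 180 (TRPV2), and was 19.2 at FEM1A. The top stage was the same for entry and gene in 14 of 18, and in 4 of the 10 outside such an interval. Genes with this arrangement include SOX4, TGFA, FEM1A and RAB11FIP4, the factor SP1 and the splicing regulator TIA1.

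The most abundant of the 18 is the SNORD49A host ENSSSCG00000046461, past the end of the ion channel gene TRPV2, and the next is the entry past SOX4, a factor of progenitor cells. ENSSSCG00000054652 (chromosome 7, 16892893 to 16895488, plus strand) begins 141 bp past its end and lies wholly within RefSeq's SOX4 interval. The entry measured 12.7 and 10.5 FPKM in PSC, 65.4 and 52.6 in DE, 33.7 and 34.6 in AFE and 101 and 96.8 in LPO. SOX4 measured 1.29 and 2.25, 44.9 and 40.2, 16.3 and 11.8, and 38.4 and 48.8 FPKM. Both were low in PSC and dipped in AFE. The entry rose in DE against PSC (2.39 with SE 0.13, adjusted p = 3.1e-06), fell in AFE (−0.74, adjusted p = 0.0022) and rose in LPO (1.04, adjusted p = 1.2e-04), and SOX4 did likewise (4.63 with SE 0.30, adjusted p = 8.0e-06; −1.55, adjusted p = 0.0021; and 1.15, adjusted p = 0.0043).

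The entry past SOX11, a related factor, did not follow its gene. ENSSSCG00000055729 (chromosome 3, 129791826 to 129795338, minus strand), picked after its values were seen, lies 3516 bp past the end of SOX11 and in no RefSeq interval of a coding gene. It measured 33.5 and 34.9 FPKM in PSC, 2.49 and 2.68 in DE, 21.8 and 22.6 in AFE and 26.4 and 25.4 in LPO. SOX11 measured 10.9 and 12, 13.8 and 12.2, 9.34 and 8.07, and 22.1 and 20.6 FPKM. The entry was thus far lower in DE than in any other stage, while the PSC and DE libraries of SOX11 overlapped. It fell 12.9-fold in DE against PSC (−3.69 with SE 0.089, adjusted p = 1.3e-07) and rose 8.89-fold in AFE (3.15 with SE 0.087, adjusted p = 6.4e-07). SOX11 was not called in DE (0.21 with SE 0.14, adjusted p = 0.23) and was lower in AFE (−0.52, adjusted p = 0.020), a call lost without AFE replicate 2 (−0.43) or DE replicate 1 (−0.43). Whether entry and gene differ in their change was not tested.

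**Figure D4:**
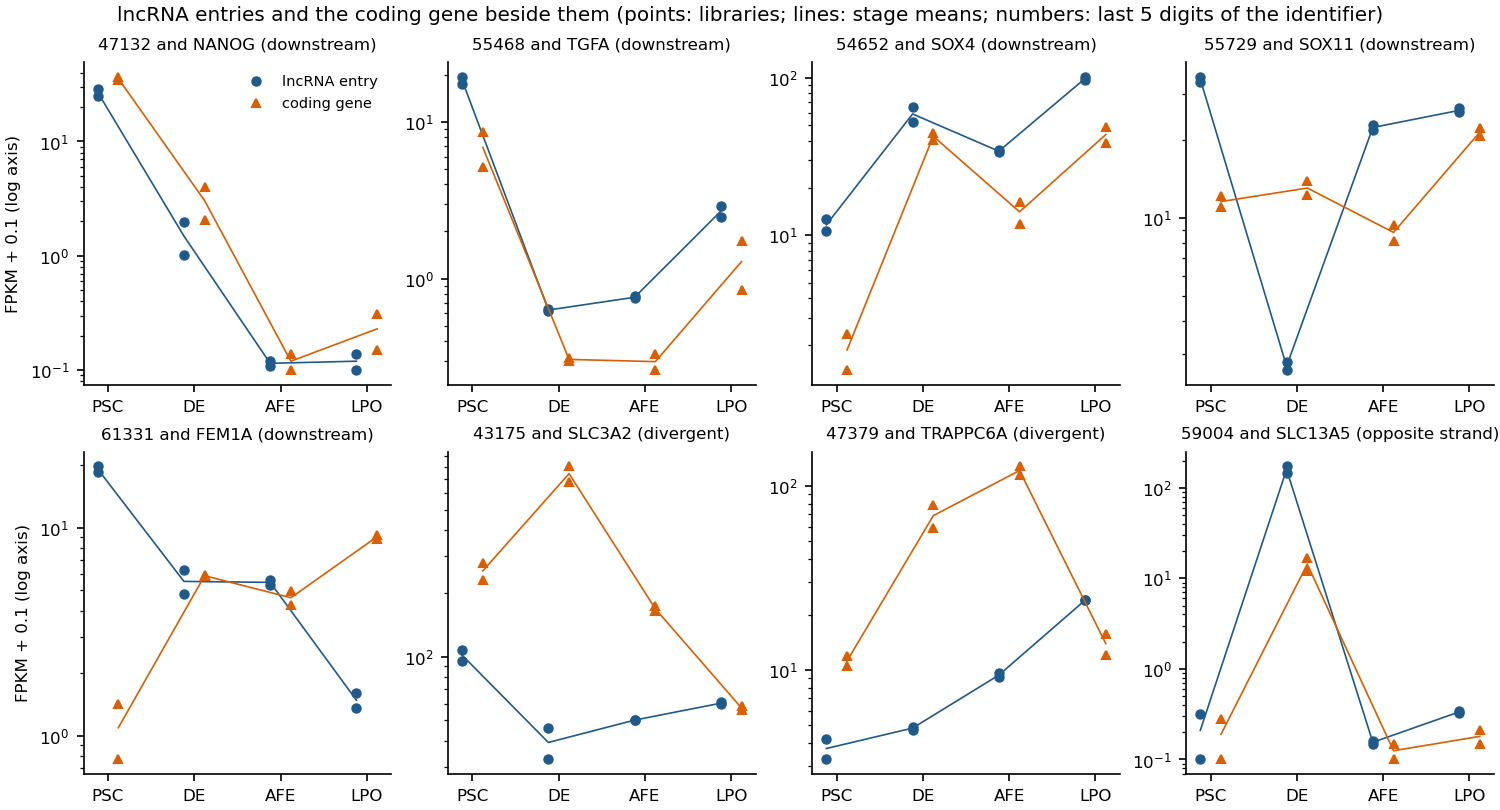
FPKM + 0.1 on a log axis of 8 lncRNA entries (circles) and the coding gene beside each (triangles) in every library, with lines through the stage means. The NANOG, TGFA, SOX4 and SLC13A5 pairs take similar courses, with SOX4 steeper than its entry from PSC to DE. The entries beside SOX11, FEM1A and SLC3A2 do not follow their gene from stage to stage. In DE, for instance, the SOX11 entry is at 2.49 and 2.68 FPKM and SOX11 at 13.8 and 12.2. SLC3A2 and its entry are both lower in LPO than in PSC. The TRAPPC6A pair rises together up to AFE and parts in LPO.

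Among the 13 divergent pairs several moved in opposite directions. SLC3A2, the heavy chain of amino-acid transporters, starts near the snoRNA host ENSSSCG00000043175 (229 bp between them). It measured 279 and 233 FPKM in PSC, 678 and 804 in DE, 164 and 174 in AFE and 55.8 and 58.3 in LPO. It rose in DE against PSC (1.57 with SE 0.10, adjusted p = 9.4e-06), where the lncRNA fell, and fell in AFE against DE (−2.08, adjusted p = 9.5e-06), where the lncRNA was not called (adjusted p = 0.091). TRAF7 (a ubiquitin ligase) likewise rose in DE (1.28, adjusted p = 1.5e-04) where ENSSSCG00000055817, the SNORD60 host 360 bp away, fell (−1.01, adjusted p = 3.3e-05).

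Beside TRAPPC6A, a subunit of a vesicle-tethering complex, ENSSSCG00000047379 climbed from 4.12 and 3.16 FPKM in PSC through 4.64 and 4.82 in DE and 9.06 and 9.48 in AFE to 23.9 and 23.8 in LPO. It rose in AFE against DE (1.02, adjusted p = 7.0e-04). TRAPPC6A measured 11.8 and 10.4 FPKM in PSC, 78.7 and 58.9 in DE, 114 and 128 in AFE and 12 and 15.6 in LPO. TRAPPC6A rose in DE against PSC (2.67, adjusted p = 1.3e-05), was also called higher in AFE against DE (0.86), and fell in LPO against AFE (−3.62, adjusted p = 2.1e-06). Entry and gene thus had the same sign up to AFE and parted in LPO.

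The pair at FAM111B, a protease gene linked to DNA replication, rose together in AFE. ENSSSCG00000056332, 68 bp away, measured 1.25 to 1.78 FPKM in PSC and DE, 4.04 and 4.29 in AFE and 13.5 and 13.0 in LPO, and rose in AFE against DE (1.5, adjusted p = 0.0011). FAM111B rose in AFE (0.92, adjusted p = 4.6e-04) and in LPO against AFE (1.91, adjusted p = 2.6e-06).

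Further divergent pairs named by the rule are given in brief. ENSSSCG00000048556, the SCARNA13 host beside the glutaredoxin GLRX5, fell in DE against PSC (−0.98, adjusted p = 0.0024), and GLRX5 fell in LPO against AFE (−1.98, adjusted p = 1.4e-05). ENSSSCG00000047290 fell in LPO against AFE (−1.92, adjusted p = 0.0018), and its neighbour DCUN1D4, a neddylation factor, fell in DE against PSC (−0.57, adjusted p = 0.0013). NARS1, an asparaginyl-tRNA synthetase, fell in DE (−0.70, adjusted p = 1.9e-04), and ENSSSCG00000057874 beside it was highest in PSC (9.68 and 12.4 FPKM). RB1CC1, an autophagy initiator, rose in LPO against AFE (1.41, adjusted p = 2.0e-06), and ENSSSCG00000055986 beside it ranged over 4.07 to 11.1 FPKM, with PSC and AFE overlapping and LPO highest.

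The nearest coding genes of the 87 entries number 83, of which 79 passed the filter. Their own levels did not enter the rule, but 27 of the 87 entries overlap the RefSeq interval of the gene beside them and 47 were highest in LPO, so that the changes of the neighbours are not independent of the choice. Of them 49 were called in DE against PSC (31 higher and 18 lower), 31 in AFE against DE (10 and 21), 56 in LPO against AFE (42 and 14) and 63 in LPO against PSC (47 and 16). These are 62.0%, 39.2%, 70.9% and 79.7%, close to the shares of all coding genes given above. Their median log2 changes were 0.29, −0.30, 1.12 and 1.42, against 0.12, 0, 0.05 and 0.43 over coding genes. The higher levels in LPO were not shared by all arrangements. The 28 genes upstream of an entry on the same strand had medians of 1.57 in LPO against AFE (19 higher and 3 lower) and 1.48 in LPO against PSC (21 and 5), and the 13 divergent genes 0.15 (5 and 4) and −0.09 (6 and 5). The difference between arrangements was not tested. On the log2(FPKM + 0.1) scale the medians in LPO against AFE and LPO against PSC were 1.5 and 1.59.

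Entry and nearest coding gene moved in the same direction in 50 of 82 pairs in DE against PSC, 44 of 82 in AFE against DE, 46 of 82 in LPO against AFE and 53 of 82 in LPO against PSC. For the other lncRNAs and their nearest coding genes the shares were 54.0%, 55.5%, 56.1% and 59.7%, beside 61.0%, 53.7%, 56.1% and 64.6% here. Among the 28 pairs with the entry past the gene's end, 16, 12, 16 and 20 went the same way (57.1%, 42.9%, 57.1% and 71.4%), beside 64.5%, 63.0%, 63.9% and 67.3% of other lncRNAs so placed. Among the 13 divergent ones 8, 8, 6 and 9 did (61.5%, 61.5%, 46.2% and 69.2%), beside 54.9%, 53.7%, 57.1% and 60.5%. These directions count every sign, called or not, and the comparisons share stages.

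**Figure D5:**
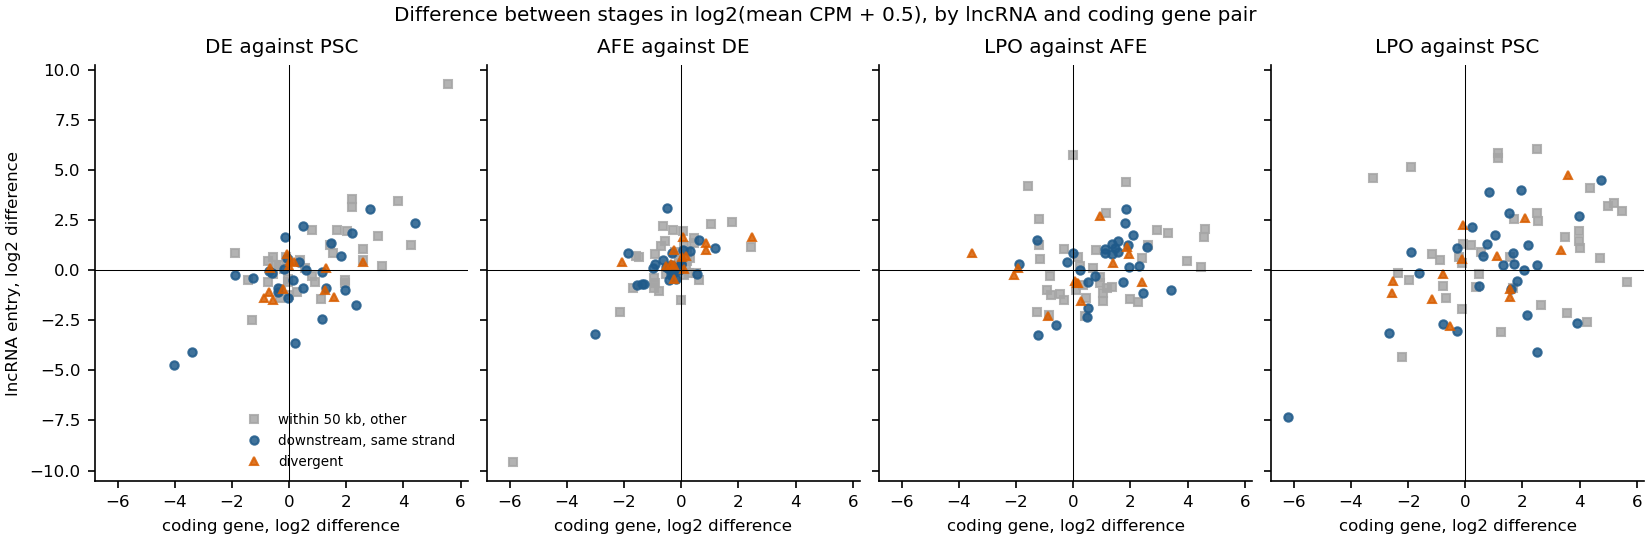
Difference between stages in log2(mean CPM + 0.5) of each abundant lncRNA entry (vertical axis) against that of its coding partner (horizontal axis), in 4 comparisons, by arrangement. Points fill all 4 quadrants, with the SLC13A5 pair at the upper right in DE against PSC and the lower left in AFE against DE. By the edgeR log2 changes in LPO against PSC, 20 of 28 downstream, 9 of 13 divergent and 24 of 39 other pairs share a sign.

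Genes of the nuclear machinery that trims and degrades lncRNAs were mostly lower in DE than in PSC. They changed little from DE to AFE, and most were lower again in LPO. Of 16 tested genes of the nuclear exosome and its adaptors, 12 were called in DE against PSC (3 higher and 9 lower), 1 in AFE against DE (higher), 12 in LPO against AFE (2 and 10) and 15 in LPO against PSC (2 and 13), with medians of −0.63, 0.03, −1.23 and −1.39. These are 75.0%, 6.25%, 75.0% and 93.8% of the list, beside the 60.0%, 39.7%, 66.7% and 75.3% of coding genes. The core subunit EXOSC2 fell from 178 to 56.3 CPM in DE (−1.66 with SE 0.091, adjusted p = 3.7e-06), rose to 97.2 in AFE (0.79, adjusted p = 4.0e-04) and fell to 13.4 in LPO (−2.86 with SE 0.096, adjusted p = 3.6e-07). EXOSC9 fell in DE (−0.99, adjusted p = 1.6e-05) and in LPO against AFE (−1.58, adjusted p = 1.1e-06). On the log2(FPKM + 0.1) scale the splits were 3 and 9, 1 and 0, 4 and 9, and 3 and 12.

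Of 10 paraspeckle and nuclear retention genes 8 were called in DE against PSC (2 higher and 6 lower), 5 in AFE against DE (2 and 3), 9 in LPO against AFE (2 and 7) and 8 in LPO against PSC (1 and 7), and coding genes were called in the shares just given. On the log2(FPKM + 0.1) scale the split in LPO against AFE was 4 and 4. The paraspeckle protein SFPQ fell in DE (−1.04, adjusted p = 2.9e-04). A list of 10 genes drawn up for cytoplasmic decay also holds XRN2, a nuclear exonuclease, which the following counts include. Of the 10, 7 were called in DE against PSC (2 and 5) and 2 in AFE against DE (both lower). In LPO 5 were called against AFE (all higher) and 7 against PSC (3 and 4). The shares of 70%, 20%, 50% and 70% lie below those of coding genes except in DE against PSC. XRN2 was lower in DE than in PSC (−0.69, adjusted p = 2.6e-04) and lower in AFE than in DE (−0.32, adjusted p = 0.021). In LPO it was below PSC (−1.09, adjusted p = 1.0e-05) but not called against AFE (−0.08, adjusted p = 0.46). The nonsense-mediated decay factor UPF2 fell in DE (−1.05, adjusted p = 0.0014), and the exonuclease XRN1 rose in LPO against AFE (3.28 with SE 0.44, adjusted p = 3.1e-04). Their part in the levels of the lncRNAs was not tested.

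Of 61 names of well-studied noncoding RNAs looked up, 2 are in the table, TUG1 as a coding entry and SCARNA2. TUG1 was at 0 to 0.63 FPKM, while the abundant entry ENSSSCG00000040413, 4783 bp from it on the other strand, measured 10.1 and 10.7 FPKM in PSC, 6.96 and 7.35 in DE, 8.88 and 8.03 in AFE and 21.5 and 21.0 in LPO.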

How the data were processed

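Polyadenylated RNA of 8 libraries, 2 of each of 4 stages, was sequenced as paired ends from a dUTP strand-keeping kit, per the labels' protocols. Tools listed in the submitters' processing notes are HISAT2 2.2.1, cutadapt 1.9, StringTie 2.1.6, edgeR and DESeq2. The genome build and the use of strand in counting are not given in the sources used here. The authors deposited 1 table of all genes with an expected count and an FPKM per library. The deposited counts stood at multiples of 4 for most low values, so 12 counts were taken as 3 read pairs, and they were rounded to whole numbers before testing. The FPKM values, made by the authors, were used for the choice of entries and for levels.

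Counts were fitted with edgeR 4.0.16 (R 4.3.3), quasi-likelihood test, TMM scaling, filterByExpr, 4 stages as groups over all 8 libraries (4 residual degrees of freedom) and Benjamini-Hochberg adjustment over 19346 genes. The smallest p that exact permutation of 2 and 2 libraries allows is 0.333. Alternatives used DESeq2 1.42.0, limma 3.58.1 on log2(FPKM + 0.1) and log2(FPKM + 1), other filters, a replicate block and the leaving out of each library. Scripts were tested on simulated data. Tables and figures were made in Python 3.11.15 with pandas 2.3.3 and matplotlib 3.10.9.

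The coding neighbour is the nearest coding entry on the chromosome. Entries named are the 10 with the highest stage mean, the 5 with the highest tau in each stage whose libraries do not overlap, up to 10 divergent pairs, 3 on each side of the threshold and up to 3 called genes of each list. Others are said to be picked after their values were seen. The members and lists were chosen with earlier results of these data known. Intervals cover counting error only.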

Additional observations from a re-analysis of the deposited data

How the results depend on the processing

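For 95 named log2 changes the alternatives gave 1613 values, of which 1601 kept direction and call, 10 lost the call and 2 reversed. The reversed values are those of ENSSSCG00000032301 in LPO against AFE, 0.209 on log2(FPKM + 0.1) and 0.208 on log2(FPKM + 1), and it was −0.01 with a filter of 5 FPKM. The cause was not tested. The number of abundant entries was 162 at a threshold of 5 FPKM, 38 at 20 FPKM and 209 with FPKM rescaled to the same sum in every library, as TPM is, and 7 were highest in DE by CPM. Among entries outside RefSeq coding intervals, an alternative chosen after seeing the data, 20 of 32, 18 of 35, 15 of 22 and 17 of 19 were called. The comparisons are DE with PSC, AFE with DE, LPO with AFE and LPO with PSC, in that order here and below. As shares these are 62.5%, 51.4%, 68.2% and 89.5%, beside 68.4%, 50.6%, 77.1% and 84.4% of all entries tested. For the entries outside these intervals the directions turned in DE against PSC (7 higher and 13 lower, against 29 and 23 over all entries tested). They also turned in LPO against PSC (7 and 10, against 20 and 18). Over all genes, 8604 were called in LPO against PSC with a filter of 5 FPKM and 4535 in AFE against DE without AFE replicate 2. Leaving out 1 library at a time gave 9052 to 10054, 4535 to 7894, 9315 to 12107 and 11374 to 13443 genes in the 4 comparisons, 44 to 50, 31 to 43, 32 to 41 and 36 to 41 abundant entries, and 43 to 50, 22 to 37, 47 to 61 and 55 to 62 coding neighbours. Libraries with the same replicate number did not deviate together (correlations of −0.0136 to 0.00782), so the numbers do not pair them. With a replicate block 9759, 6137, 10788 and 12596 genes, 50, 39, 36 and 38 entries and 50, 29, 53 and 60 neighbours were called. With 2 libraries a stage, small changes and levels near 3 read pairs could not be resolved.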
